A study of Homo sapiens with 20 samples.

Results

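EVI1, the zinc finger transcription factor encoded by the MECOM gene, was switched on in clones E10 and E14 by tet withdrawal, and the first 12 h of this induction were examined on 8 of the 20 arrays of the series. The 8 arrays were those of E10 and E14 at 6 and 12 h, 4 without tet and 4 with tet, and each array without tet was paired with the tet-containing culture of the same clone and time. The parent of both clones is U937T, a human myeloid cell line of U937 background. Both clones carry a tet-repressible cDNA for HA-tagged EVI1, so that EVI1 came from a transgene and not from its own locus. Both clones were kept in puromycin and hygromycin, and the cultures that stayed in tet were washed in PBS like the induced ones. Each EVI1 line is 1 clone, and there was 1 array per clone, time and condition, so that E10 and E14 stood in as replicates. The pooled p-values rest on the spread over the 4 pairs, in which each clone enters at both times. The p-values by time rest on a spread shared by all 20 arrays, those of the control lines included. Neither measures the spread between independent cultures of 1 clone. The empty vector clone P2 and the parental line U937T were hybridized only at 48 h, with and without tet. At 6 and 12 h, tet withdrawal as such and the induction of EVI1 therefore cannot be told apart.

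EVI1 binds DNA through 2 separate zinc finger domains and recruits corepressors as well as coactivators. It is known for its part in the maintenance of blood stem cells and as an oncogene of myeloid leukemia, where high levels go with a poor prognosis. In a tet-off system the transactivator binds the promoter of the transgene once tet is removed, so that the transcript of the transgene appears first and changes in other genes can follow.

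The values were log2 intensities made by Robust Multi-array Analysis (RMA). On the 8 arrays they spanned 1.84 to 14.49, with medians of 5.25 to 5.33, and 1 probe set stood for each of 17860 genes. Of 12 measured myeloid markers, 10 had a mean log2 value of at least 7 on these arrays. LYZ, which encodes lysozyme, was the highest with a mean of 12.1, and FCGR1A, an Fc receptor, the lowest with 3.37. Markers of other cell types at or above a mean of 7 were NKG7 and CD79A among 12 lymphoid genes, EPOR among 10 erythroid and megakaryocyte genes and COL1A1 among 9 epithelial and fibroblast genes. The log2 of the summed myeloid marker signal ranged from 14.46 to 14.66 with tet and from 14.35 to 14.62 without. In such bulk RNA, fewer cells of a type and less RNA per cell cannot be told apart.

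The 3′ minus 5′ difference of the actin and GAPDH control probe sets, a measure of RNA integrity on the log2 scale, set the E14 pair at 12 h apart. This difference was higher without tet than with tet in E10 at 6 h (0.293 against 0.187), in E14 at 6 h (0.651 against 0.450) and in E10 at 12 h (0.797 against 0.550). In E14 at 12 h it went the other way, with 0.460 without tet and 1.02 with tet. The deviation of E10 from E14 across genes correlated between the cultures with and without tet at 0.522 at 6 h and at -0.188 at 12 h. Genes that differed between E10 and E14 in the same direction in all 6 conditions at 6, 24 and 48 h were ranked by the size of their smallest difference. Of the 25 ranked highest, 24 differed in that direction at 12 h with tet and 20 at 12 h without tet. The genes called at 12 h and several others are therefore also given without the E14 arrays of that time. RNA integrity was entered as a covariate in an alternative fit, and its part in single results was not tested further.

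The induction of EVI1 itself was visible at 6 h and larger at 12 h. At 6 h the probe set used for MECOM was at 7.14 (E10) and 7.09 (E14) with tet and at 8.52 and 8.63 without tet. At 12 h it was at 7.08 and 7.06 with tet and at 9.52 and 9.92 without tet. All 4 arrays without tet lay above all 4 arrays with tet, which stayed close to each other. The difference was 1.46 ± 0.21 (SE, n = 2 clones) at 6 h, a 2.76-fold higher level, and 2.65 ± 0.21 at 12 h, a 6.27-fold higher level. At 12 h this passed the test (limma, adjusted p = 4.33e-05), whereas at 6 h it did not (adjusted p = 0.106). Without the E14 arrays at 12 and 24 h the difference at 12 h was 2.44 (adjusted p = 0.136). The difference was 2.32 at 24 h and 3.10 at 48 h, and in the control lines, which carry no EVI1 cDNA, it was -0.47 at 48 h (adjusted p = 0.183), with -0.99 in P2 and 0.05 in U937T. The other 4 probe sets of MECOM had mean values of 2.59 to 3.38, near the lowest values of the arrays, and gave no further measurement of the transgene.

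**Figure D1:**
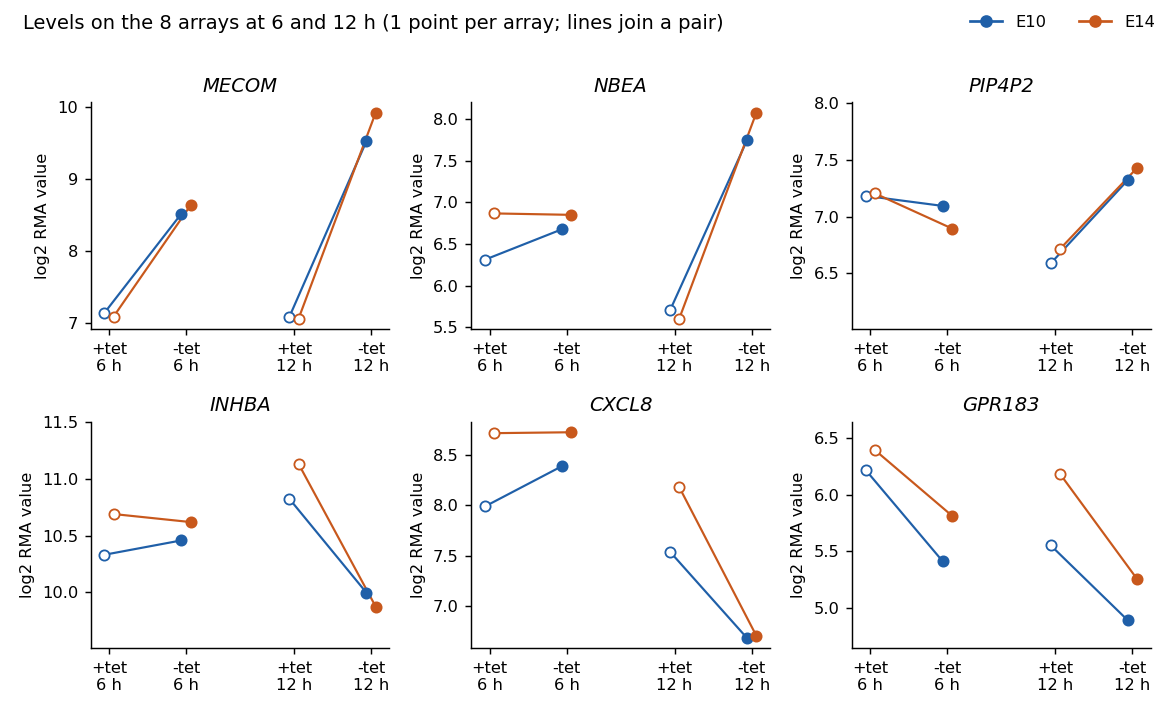
Log2 RMA values (y axis) of 6 genes on the 8 arrays of E10 and E14 at 6 and 12 h (x axis), open symbols with tet and filled symbols without tet, 1 point per array and lines joining the arrays of a pair. MECOM was apart at both times, NBEA, PIP4P2, INHBA and CXCL8 passed the test at 12 h and not at 6 h, and GPR183 was lower without tet in all 4 pairs.

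Pooled over 6 and 12 h, the question was which genes besides EVI1 differed within the first 12 h. No gene was called in either direction at an adjusted p under 0.05 (limma with the pair as block, 0.0% of 17860 genes higher and 0.0% lower), and the smallest adjusted p was 0.104, reached by MECOM and by GPR183. At an unadjusted p under 0.05 there were 499 genes, 243 higher and 256 lower without tet. Without the E14 pair at 12 h these counts were 725 and 871, without E14 627 and 696, and without E10 189 and 96, the last being also the lowest count of lower genes when a pair or clone was left out. The pooled differences were small, with 5% of genes below -0.14 and 5% above 0.15. MECOM (2.06 ± 0.22) and NBEA (1.22 ± 0.36) were the 2 genes with a pooled difference of at least 2-fold, and for MECOM the 4 pairs ranged from 1.38 to 2.86. Both were called higher when all 20 arrays entered the fit with a line block. All 4 pairs were higher without tet for 751 genes (4.2%) and lower for 1007 genes (5.64%), and these counts were 511 and 1600 when each array was centered on its median. The 4 arrays without tet lay above all 4 with tet for 133 genes (0.745%) and below them for 116 (0.649%), or 89 and 183 after centering.

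GPR183, the oxysterol receptor that guides migrating leukocytes, was chosen after its values were seen. With tet it was at 6.22 (E10, 6 h), 6.40 (E14, 6 h), 5.55 (E10, 12 h) and 6.19 (E14, 12 h), and without tet at 5.41, 5.82, 4.89 and 5.26. Each array without tet was below its own partner by 0.58 to 0.93 in size, while the groups overlapped, since E10 at 12 h with tet lay below E14 at 6 h without tet. The pooled difference was -0.74 ± 0.08 (SE, n = 4 pairs, limma adjusted p = 0.104). At 48 h it was -0.69 in the EVI1 clones (adjusted p = 0.00658) and -0.45 in the control lines (adjusted p = 0.121).

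Another 5 genes with 4 pairs on the same side, TLR4, S100A8, PDE4B, C5AR1 and CPEB4, were likewise picked with their values in view, and none passed the test. TLR4, the lipopolysaccharide receptor, was at 7.81, 7.87, 6.83 and 6.62 with tet and at 7.44, 7.22, 5.94 and 6.16 without tet, in the order E10 and E14 at 6 h, then E10 and E14 at 12 h. Every pair was lower without tet, by less than the fall from 6 to 12 h within each condition, so that the groups overlapped. The pooled difference was -0.59 ± 0.10 (limma adjusted p = 1.00), and 2 of the other 3 probe sets of TLR4 were higher without tet in E14 at 12 h, by 0.45 and 0.08. S100A8, a subunit of the calcium-binding protein calprotectin, was at 7.78, 8.61, 7.62 and 8.31 with tet and 7.47, 7.91, 7.20 and 7.77 without tet in the same order. Its pooled difference was -0.49 ± 0.09, opposite in sign to 3.02 at 48 h and to 3.46 in the control lines at 48 h. PDE4B, which degrades cAMP, differed by -0.51 ± 0.10, but another of its probe sets was higher without tet in E14 at 12 h, by 0.26. C5AR1, the receptor for complement C5a, differed by -0.39 ± 0.08. CPEB4, which binds polyadenylation elements of mRNAs, was higher in all 4 pairs, by 0.45 ± 0.09, but each of its other 3 probe sets was lower without tet in at least 1 pair, by up to 0.51 in size in E10 at 6 h and 0.53 in E14 at 12 h. Without the E14 pair at 12 h the pooled differences were -0.68 for GPR183, -0.64 for TLR4 and -0.48 for S100A8. They were -0.58 for PDE4B, -0.37 for C5AR1 and 0.43 for CPEB4. In the control lines at 48 h the differences were -0.03 for TLR4, -0.15 for PDE4B, 2.10 for C5AR1 and 1.64 for CPEB4.

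At 6 h, no gene was called (limma, 0.0% higher and 0.0% lower), and 586 genes had an unadjusted p under 0.05, 276 higher and 310 lower. MECOM was the only gene with a difference of at least 2-fold. Across genes, the responses of E10 and E14 correlated with a Pearson r of 0.170 at 6 h and of -0.082 at 12 h, against 0.763 at 24 h and 0.889 at 48 h. These are descriptions over 17860 genes of the same arrays, and genes are not independent replicates.

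At 12 h, 5 genes were called, MECOM, NBEA and PIP4P2 as higher (0.0168%) and INHBA and CXCL8 as lower (0.0112%), and 1134 genes had an unadjusted p under 0.05, 456 higher and 678 lower (limma). NBEA encodes neurobeachin, a large scaffold protein of membrane traffic, and PIP4P2 a phosphatase that acts on phosphatidylinositol 4,5-bisphosphate. INHBA encodes the subunit from which activin A is built, and CXCL8 encodes interleukin-8, the chemokine that attracts neutrophils. Without the E14 arrays at 12 and 24 h, NBEA was still called (2.04, adjusted p = 0.0127), whereas PIP4P2 (0.74), INHBA (-0.83) and CXCL8 (-0.86) kept their direction with an adjusted p of 1. Without E10, CXCL8 (-1.47, adjusted p = 0.064), INHBA (-1.26, adjusted p = 0.19) and PIP4P2 (0.72, adjusted p = 0.788) also missed the threshold, whereas NBEA and MECOM were called. In all these fits 1 clone stood alone at 12 h and was assumed to vary like the other groups, so that their p-values rest on the spread at other times and in other lines.

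NBEA was at 6.31 (E10) and 6.87 (E14) with tet and at 6.68 and 6.85 without tet at 6 h. At 12 h it was at 5.70 and 5.60 with tet and at 7.75 and 8.07 without tet. The groups overlapped at 6 h, and at 12 h both arrays without tet were above every other early array while both with tet were below every other. The difference at 12 h was 2.26 ± 0.13 (limma adjusted p = 1.76e-06), a 4.78-fold higher level. It was larger than that at 6 h by 2.08 (adjusted p = 0.000429), and by 1.68 without E14, where the call was lost. NBEA was the only gene called in this comparison of times (0.0056% of genes higher at 12 h, 0.0% lower), in which 1114 genes had an unadjusted p under 0.05. A second probe set of NBEA differed by 1.60 and 1.46 at 12 h. The difference was 3.49 at 24 h and 4.14 at 48 h, and NBEA was also higher without tet in the control lines, by 2.96 at 48 h.

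PIP4P2 was at 7.18 and 7.20 with tet and 7.09 and 6.89 without tet at 6 h, and at 6.59 and 6.71 with tet and 7.32 and 7.43 without tet at 12 h. The arrays with tet at 12 h were thus the lowest of the 8, and those without tet at 12 h the highest. The difference was 0.73 ± 0.10 at 12 h (limma adjusted p = 0.0138). The call was lost with the pair as a replicate block over 10 differences (adjusted p = 0.0557) and with no replicate block (adjusted p = 0.154). The control lines differed by 1.74 in the same direction at 48 h.

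INHBA was at 10.83 (E10) and 11.13 (E14) with tet and at 10.00 and 9.87 without tet at 12 h. At 6 h its 4 arrays lay between 10.33 and 10.69, with differences of 0.13 in E10 and -0.07 in E14. At 12 h both arrays without tet were below every other early array, and both with tet were above every other. The difference at 12 h was -1.04 ± 0.13 (limma adjusted p = 0.00769), which passed with the pair as a replicate block over 10 differences and not with no replicate block (adjusted p = 0.303). A second probe set differed by -1.06 and -1.14. INHBA then differed by -2.97 at 24 h and -3.29 at 48 h, and by -1.30 in the control lines at 48 h.

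CXCL8 was at 7.99 and 8.72 with tet and at 8.39 and 8.72 without tet at 6 h. At 12 h it was at 7.54 (E10) and 8.18 (E14) with tet and at 6.68 and 6.71 without tet. The arrays without tet at 12 h were the lowest of the 8. The difference at 12 h was -1.17 ± 0.15 (limma adjusted p = 0.00769), a 2.24-fold lower level. The call was lost with the pair as a replicate block over 10 differences (adjusted p = 0.0557) and with no replicate block (adjusted p = 0.215). The difference was -1.43 at 24 h and 0.14 at 48 h (adjusted p = 0.542), and the control lines differed by 0.34 at 48 h (adjusted p = 0.169). The other probe set of CXCL8, with a lower mean of 5.30, differed by -0.49 in E10 and 0.17 in E14 at 12 h and so went the other way in 1 clone.

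The promoters of 3 of the genes called at 12 h are shown because motifs of EVI1 and of other factors were searched in them. For PIP4P2 no promoter sequence was available. They are the 250 bases before the start of the gene in RefSeq (GRCh38.p14), 5′ to 3′ on the strand of the gene. CXCL8 is shown from chr4:73740319-73740568 (plus strand), INHBA from chr7:41703091-41703340 (minus strand) and NBEA from chr13:34942020-34942269 (plus strand). Capitals mark TATAAA, the core of a TATA box, TGACTCA, a motif of AP-1 factors, and GGAATTTCC, a motif of NF-kB factors, which were chosen after the sequences were seen.
CXCL8: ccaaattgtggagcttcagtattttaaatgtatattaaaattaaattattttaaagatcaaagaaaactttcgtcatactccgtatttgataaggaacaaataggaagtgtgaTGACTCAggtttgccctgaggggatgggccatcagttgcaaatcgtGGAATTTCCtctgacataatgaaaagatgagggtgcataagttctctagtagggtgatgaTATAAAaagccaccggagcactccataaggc
INHBA: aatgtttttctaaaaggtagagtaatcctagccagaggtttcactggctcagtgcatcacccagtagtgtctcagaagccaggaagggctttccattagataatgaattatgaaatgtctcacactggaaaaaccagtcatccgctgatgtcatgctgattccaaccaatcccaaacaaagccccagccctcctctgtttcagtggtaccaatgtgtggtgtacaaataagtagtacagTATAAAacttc
NBEA: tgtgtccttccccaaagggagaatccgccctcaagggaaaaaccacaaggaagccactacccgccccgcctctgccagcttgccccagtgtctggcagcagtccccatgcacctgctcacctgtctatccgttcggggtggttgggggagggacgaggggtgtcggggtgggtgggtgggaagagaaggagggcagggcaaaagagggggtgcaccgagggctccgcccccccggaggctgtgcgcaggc

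Both genes that were lower at 12 h held TATAAA on the strand of the gene, and CXCL8 also held 1 TGACTCA and 1 GGAATTTCC. The NBEA window held none of these and had a G and C content of 66.4%, against 37.6% in CXCL8 and 42.8% in INHBA. Of 2 genes that were lower at 12 h without being called, GPR183 held 3 TATAAA, counted on both strands, and FOSL2 held none of the motifs. Searched on both strands of the 14003 promoters of tested genes at this length, TATAAA occurred in 7.54%, TGACTCA in 3.02% and GGAATTTCC in 0.4%. Among all 27305 promoters these shares were 11.1%, 4.16% and 0.428%. GACAAGATA, a motif of the first zinc finger domain of EVI1, occurred in 0.0989% of them, GAAGATGAG, a motif of the second domain, in 0.26%, and the E box CACGTG in 6.49%. None of these last 3 motifs was found in the windows of CXCL8, INHBA, NBEA, MECOM, MS4A3, CD52, GPR183 and FOSL2. A match is a description of letters and no site of binding, and a missing match says nothing of the factor.

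**Figure D2:**
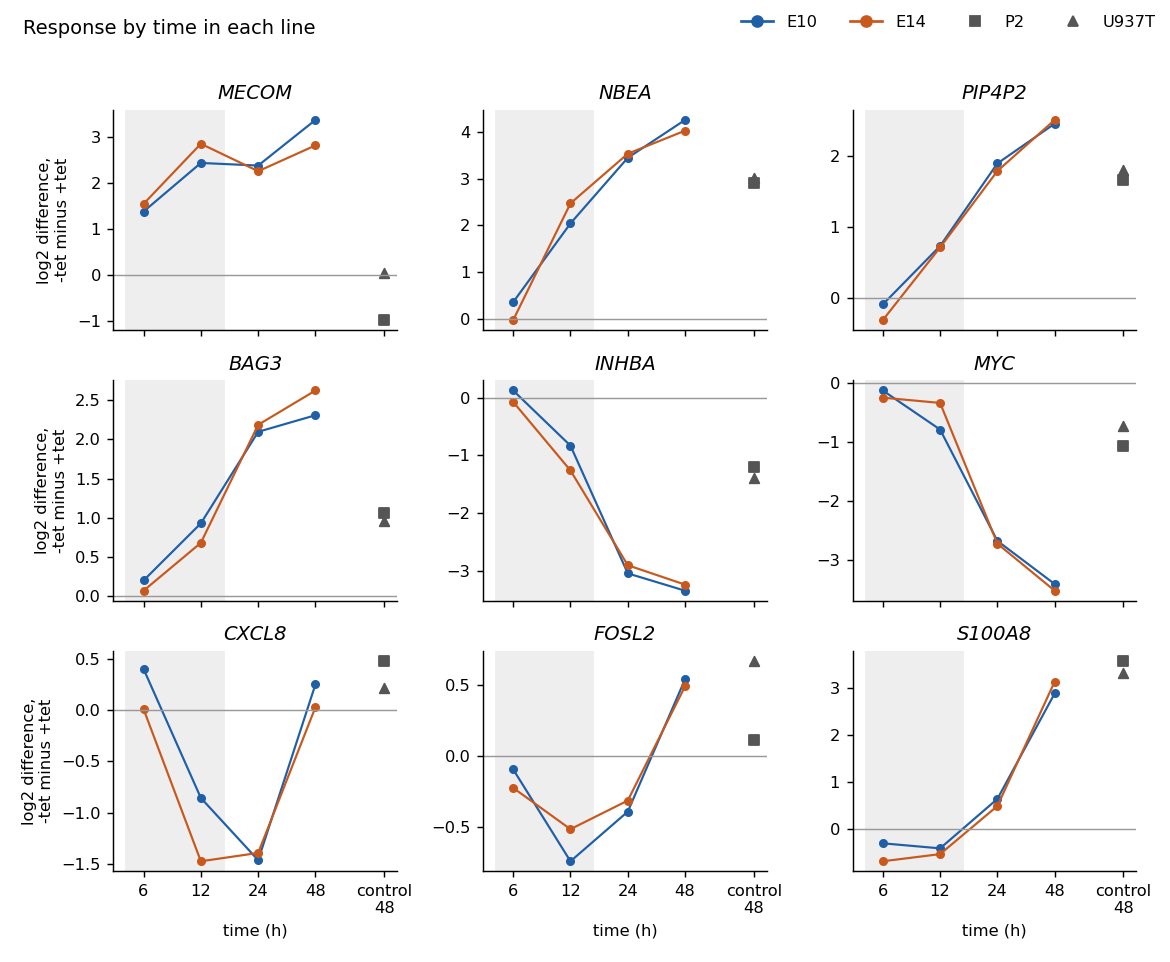
Log2 differences without minus with tet (y axis) of 9 genes in E10 and E14 by time in h (x axis, evenly spaced) and in P2 and U937T at 48 h, 1 point per pair of arrays, with 6 and 12 h shaded. NBEA, PIP4P2, BAG3, INHBA and MYC lay the same way in the control lines. CXCL8 was lower at 12 and 24 h only, and S100A8 was lower at 6 and 12 h and higher later.

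Genes short of the test at 12 h included BAG3, a cochaperone of HSP70. BAG3 was at 6.06 and 6.56 with tet and at 6.99 and 7.24 without tet at 12 h, so that both arrays without tet were above the other early arrays. The difference was 0.80 ± 0.13 (limma adjusted p = 0.0671), against 2.14 at 24 h and 1.00 in the control lines at 48 h. MYC, the growth-promoting transcription factor, was at 11.58 and 11.38 with tet and at 10.78 and 11.04 without tet at 12 h, and both arrays without tet were the lowest of the 8. Its difference was -0.57 ± 0.15 (adjusted p = 0.439), against -2.71 at 24 h and -0.91 in the control lines at 48 h. FOSL2, a subunit of AP-1, was at 8.92 and 9.14 with tet and at 8.18 and 8.62 without tet at 12 h. These arrays without tet were likewise the lowest of the 8, and the difference was -0.63 ± 0.14 (adjusted p = 0.254). In E10 alone the differences at 12 h were 0.93 for BAG3, -0.80 for MYC and -0.74 for FOSL2. All 5 probe sets of FOSL2 were lower without tet in all 4 early pairs. At 48 h the probe set used differed by 0.51 in the EVI1 clones and by 0.39 in the control lines. The probe set of FOSL2 with the largest spread over the arrays differed by 0.14 in the EVI1 clones at 48 h.

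MS4A3, a membrane protein of myeloid precursors, and CD52, a small surface glycoprotein, were not called within 12 h. MS4A3 was at 11.93, 11.81, 11.91 and 11.84 with tet and at 11.98, 11.85, 11.86 and 11.64 without tet, in the order E10 and E14 at 6 h, then E10 and E14 at 12 h. The groups overlapped, and the difference was 0.04 ± 0.10 at 6 h and -0.12 ± 0.10 at 12 h (limma adjusted p = 0.865), against -1.27 at 24 h and -3.81 at 48 h. CD52 was at 5.15, 5.63, 5.07 and 5.17 with tet and at 5.35, 5.72, 5.00 and 5.35 without tet in this order. Its groups overlapped as well, with a difference of 0.05 ± 0.18 at 12 h (adjusted p = 0.974) against 1.12 at 24 h and 4.05 at 48 h. In the control lines at 48 h, CD52 differed by 1.07 (limma adjusted p = 0.00199) and MS4A3 by -0.25 (adjusted p = 0.130).

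The genes that were called later were then placed at 6 and 12 h, on arrays that took no part in those later calls other than through the shared estimate of the spread. At 24 h, 1423 genes were called higher (7.97%) and 1636 lower (9.16%), and at 48 h 2854 (16%) and 2623 (14.7%). Of the 1636 genes lower at 24 h, 62.0% were lower in both clones at 12 h, against 24.9% of all genes, and 2.81% were higher in both. Their median difference was -0.14 at 12 h. At 6 h the median was 0.00, and 29.0% were lower in both clones, against 27.6% of all genes. In E10 alone, 78.3% of them were lower at 12 h, against 55.6% of all genes, and in E14 alone 80.8%, against 47.7%. Among the 175 that differed by at least 2-fold at 24 h, 77.1% were lower in both clones at 12 h. Genes that belong to 1 program move together on an array, so that these shares carry no test.

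The genes called higher at 24 h were placed less clearly. At 12 h, 41.8% of the 1423 were higher in both clones, against 21.2% of all genes, with a median difference of 0.07. At 6 h, 19.2% were higher in both clones, against 26.5% of all genes, and 38.7% were lower in both, against 27.6%. In E10 alone, 50.6% of them were higher at 6 h, against 51.5% of all genes, and in E14 alone 29.6%, against 46.9%. The genes called in the control lines at 48 h were 966 higher (5.41%) and 946 lower (5.3%). Of the latter, 62.1% were lower in both EVI1 clones at 12 h, against 24.9% of all genes. Of the former, 38.9% were higher in both, against 21.2%.

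**Figure D3:**
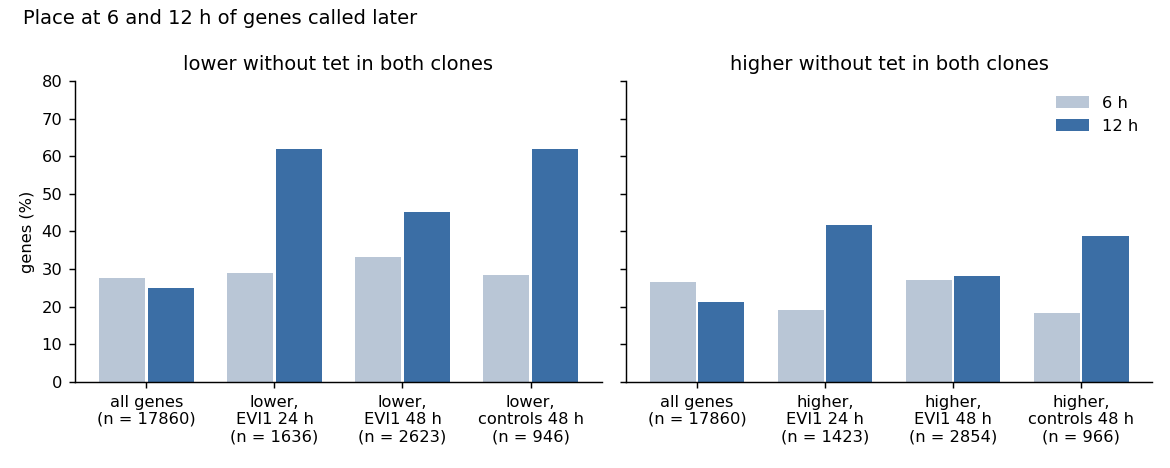
Share of genes (y axis, percent) lower (left) or higher (right) without tet in both clones at 6 h and at 12 h, for all 17860 genes and for those called in that direction in the EVI1 clones at 24 h, at 48 h and in the control lines at 48 h. For the genes lower at 24 h the share was 62.0% at 12 h, against 24.9% of all genes, and 29.0% at 6 h, against 27.6%.

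The early response of E10 was set against that of E14 to see whether the clones differed. No gene was called (limma, 0.0% higher and 0.0% lower in E10), with a smallest adjusted p of 1.00, and 686 genes had an unadjusted p under 0.05, 207 higher and 479 lower. CXCL8 differed between the clones by 0.50 ± 0.50 (SE), with 0.40 and -0.86 in E10 and 0.01 and -1.47 in E14 at 6 and 12 h. Its other probe set gave -0.11 and -0.49 in E10 and -0.94 and 0.17 in E14. CD36, a scavenger receptor, differed without against with tet by -0.37 and -0.03 in E10 and by -0.73 and -1.13 in E14, in the order 6 and 12 h. At 12 h the next brightest probe set of CD36 gave 0.00 in E10 and -0.17 in E14. The one after it gave -0.08 and -0.53, so that the size in E14 depended on the probe set.

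Of 25 gene lists, no member of any list was called in the pooled early response, and the medians of the pooled difference ran from -0.10 for histone genes to 0.07 for lymphoid markers, against -0.01 for all genes. The list that stood lowest at 12 h was ribosome biogenesis, the factors that assemble ribosomal subunits in the nucleolus. Of its 37 measured members, 21 were lower in both clones at 12 h (24.9% of all genes) and 1 was higher (21.2%), with a median of -0.11 in E10 and -0.22 in E14, against -0.02 and 0.01 for all genes. None of them was called at 12 h, and at 6 h their median was 0.00. At 24 h the median was -0.96 with 33 called lower (9.16% of all genes), and in the control lines at 48 h -0.56 with 29 called lower (5.3%). BYSL, a factor of the small subunit, was at 10.48, 10.49, 10.56 and 10.71 with tet and at 10.42, 10.47, 10.34 and 10.46 without tet, in the order E10 and E14 at 6 h, then at 12 h. All 4 arrays without tet lay below those with tet (0.649% of all genes), with a pooled difference of -0.14 ± 0.08. The gap was narrow, with 10.474 in E14 at 6 h without tet against 10.476 in E10 at 6 h with tet. BYSL was among 3 members of the list that were lower in all 4 pairs (8.11%, against 5.64% of all genes). UTP15, of the same pathway, differed by -0.15 ± 0.07.

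Only 2 of the 25 lists held a member called at 12 h, and the called genes MECOM, NBEA and PIP4P2 were in none of the lists. Of 32 cytokines and chemokines, 2 were called lower at 12 h, CXCL8 and INHBA, against 0.0112% of all genes. The median was -0.02 and no member was on the same side in all 4 pairs. INHBA, counted again, was the 1 member called among 35 genes of TGF-beta and activin signaling, against the same 0.0112%. In that list 3 members were lower in all 4 pairs (8.57%, against 5.64% of all genes) and 1 was higher. Among the 3 were TGIF1, a corepressor of SMAD proteins (-0.40 ± 0.10 in the pooled response), and LTBP3, which binds latent TGF-beta (-0.27 ± 0.10), neither called. Among 30 immediate early genes 2 were lower in all 4 pairs (6.67%, against 5.64% of all genes) and 1 was higher. The 2 were FOSL2 (-0.39 ± 0.11) and JUNB (-0.13 ± 0.07), another subunit of AP-1. Of 19 NF-kB factors and feedback targets, 3 were lower in all 4 pairs (15.8%, against 5.64% of all genes), among them the inhibitor NFKBIE (-0.18 ± 0.08) and the deubiquitinase CYLD (-0.12 ± 0.08). Of the 6 other probe sets of CYLD, 5 went the other way in at least 1 pair and 2 on average.

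Genes of myeloid maturation showed no member that passed the test. Of 27 genes of monocyte and macrophage maturation, 16 were lower in both clones at 6 h (27.6% of all genes) and 5 were higher (26.5%), with a median of -0.14 at 6 h and -0.01 at 12 h. TLR4 and CD36 (-0.56 ± 0.16) were among the 5 members lower in all 4 pairs (18.5%, against 5.64% of all genes). At 48 h 10 of the 27 were called higher in the EVI1 clones (16% of all genes) and 8 in the control lines (5.41% of all genes). Of 19 stem and progenitor factors, CEBPA, a driver of granulocyte differentiation, differed by -0.22 ± 0.09, and KLF2, a factor of quiescence, by 0.22 ± 0.09. Of 7 measured genes reported as EVI1 targets, ADGRG1, an adhesion receptor of stem cells, was higher in all 4 pairs by 0.11 ± 0.08, and its 4 arrays without tet lay above those with tet (0.745% of all genes). Another probe set of ADGRG1 was lower without tet in E14 at 6 h (-0.13) and in E10 at 12 h (-0.17), and with that probe set the pooled difference was 0.003. The lymphoid list held 1 member lower in all 4 pairs, NKG7 (-0.08 ± 0.08, 8.33% of the list). The erythroid and megakaryocyte list held 1 as well, GP1BA (-0.14 ± 0.07, 10%), against 5.64% of all genes. Of 9 epithelial and fibroblast genes none was on the same side in all 4 pairs.

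The lists of growth and stress likewise held no called member. Of 24 genes of G2 and M phase, 12 were lower in both clones at 6 h (27.6% of all genes), with a median of -0.07. At 12 h 9 were higher in both (21.2% of all genes), with a median of 0.05. UBE2C, a ubiquitin-conjugating enzyme of mitotic exit, was the 1 member higher in all 4 pairs (4.17%, against 4.2% of all genes), by 0.19 ± 0.08. Of 22 cell cycle inhibitors and antiproliferative genes, 14 were lower in both clones at 6 h, against the same 27.6%, with a median of -0.08. The 37 interferon-stimulated genes had a median of -0.04 at 6 h and 0.06 at 12 h, against 0.34 at 24 h, when 19 were called higher (7.97% of all genes). Of 26 genes of hypoxia and glycolysis, 6 were lower in all 4 pairs (23.1%, against 5.64% of all genes), among them ANKRD37 (-0.15 ± 0.07) and NDRG1 (-0.17 ± 0.08), while the median of the list was -0.01. Of 15 heat shock and chaperone genes, 3 were higher in all 4 pairs (20.0%, against 4.2% of all genes), among them BAG3 (0.47 ± 0.14) and HSPH1 (0.08 ± 0.07). Another probe set of HSPH1 was lower without tet at 6 h (-0.26 in E10, -0.20 in E14) and in E10 at 12 h (-0.04). In E14 at 12 h that probe set was higher (0.45). None of the members named here was called in the pooled response.

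The remaining lists held few members on 1 side in all 4 pairs, none of them called. Of 16 histone genes, 8 were lower in both clones at 6 h (27.6% of all genes) and 1 was higher (26.5%). H2BC5 (-0.17 ± 0.07) and H2BC12 (-0.11 ± 0.07) were lower in all 4 pairs (12.5%, against 5.64% of all genes). Of 29 genes of the integrated stress response, CEBPB, a factor of myeloid differentiation, differed by -0.22 ± 0.08, and ASS1, which takes part in arginine synthesis, by -0.06 ± 0.07. CEBPB was at 11.28 and 11.48 with tet and at 10.98 and 11.08 without tet at 12 h, so that its arrays without tet were the lowest of the 8, as were those of CEBPA at 11.30 and 11.34. In the lists of cell death, BCL2A1, a survival factor of the BCL2 family, differed by -0.18 ± 0.08, and TNFRSF1A, the receptor of TNF, by -0.13 ± 0.08 with groups that did not overlap (0.649% of all genes). Of 23 S phase genes CCNE1, which encodes cyclin E, was higher by 0.08 ± 0.07 and MCM5, of the replicative helicase, lower by a difference of -0.07 ± 0.07, while the cell cycle inhibitor CDKN1B differed by -0.08 ± 0.08. Among the interferon-stimulated genes OASL (-0.11 ± 0.08) and IFITM1 (0.10 ± 0.08) lay on opposite sides, and of 19 granule genes of promyelocytes DEFA4, a defensin, was higher by 0.07 ± 0.07. Of 22 EVI1 corepressors and partners and of 20 genes of cholesterol synthesis and uptake, none was on the same side in all 4 pairs. Of the 39 named genes on 1 side in all 4 pairs, 18 had other probe sets that passed the filter. For 16 of these at least 1 other probe set lay on the opposite side in a pair. For 4 of them, CCNE1, CD36, CYLD and HSPH1, this held also on average over the pairs.

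**Figure D4:**
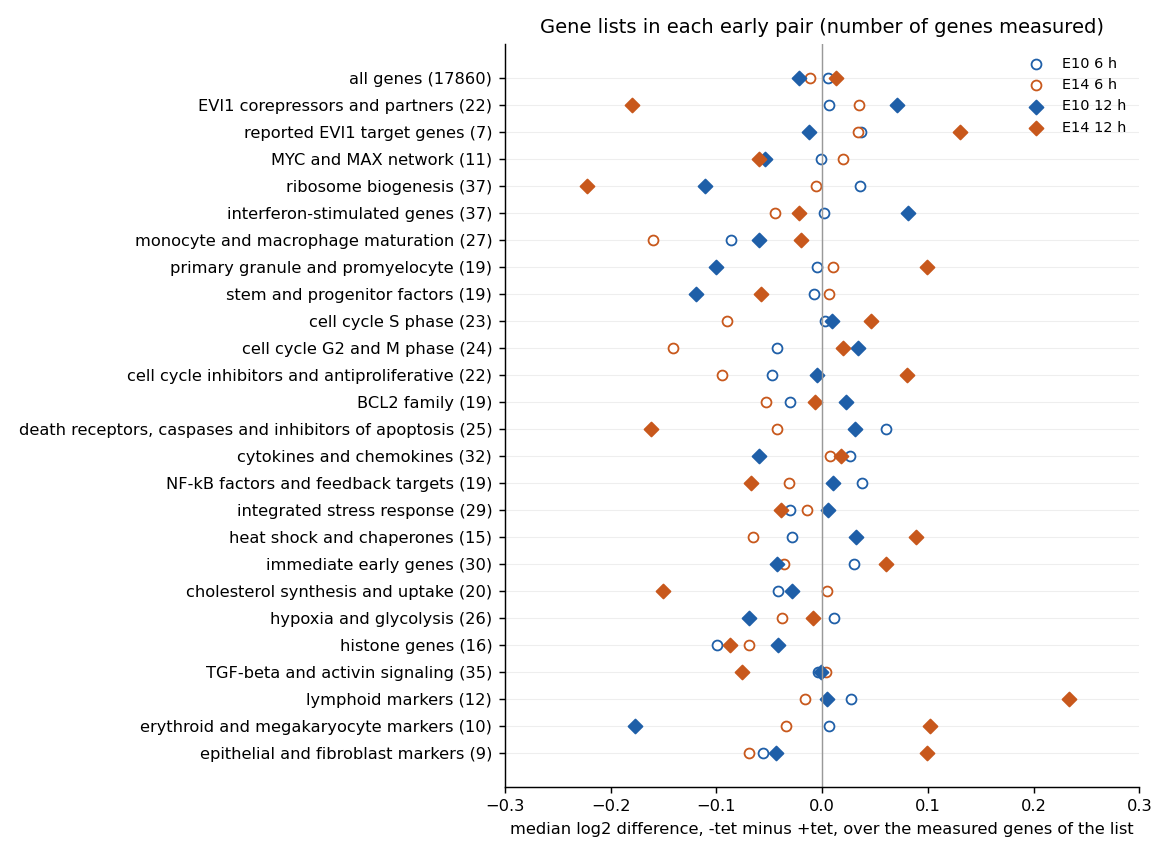
Median log2 difference without minus with tet (x axis) over the measured genes of each list (y axis, number measured in parentheses) in each of the 4 early pairs, open circles at 6 h and filled diamonds at 12 h. Ribosome biogenesis was at -0.11 (E10) and -0.22 (E14) at 12 h and near 0 at 6 h, and several lists, such as EVI1 corepressors and partners, lay on opposite sides in the 2 clones at 12 h.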

How the data were processed

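The study hybridized RNA of 4 lines to 20 Affymetrix U133 Plus 2.0 arrays. The deposited values are log2 intensities that the authors made by Robust Multi-array Analysis (background correction, quantile normalization, median polish), and they were used as deposited. Precision is limited by the number of arrays. Gene symbols came from the platform annotation. Of 54675 probe sets, 41097 carried a single symbol and were used, not the 1801 with several or the 11777 with none. A mean log2 of at least 3 at 24 and 48 h, as in the study, was met by 35610 of these, and the brightest one on average was taken for each of 17860 genes.

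The pooled early response was fitted in limma 3.58.1 (R 4.3.3) on 8 arrays with the pair of clone and time as a block (3 residual degrees of freedom), and the clone difference likewise with 2. Responses at 6, 12, 24 and 48 h, the difference of 12 and 6 h and the control lines came from all 20 arrays in 10 groups with the line as a block (8 residual degrees of freedom). Cultures with and without tet are paired because they are of the same cell line. Benjamini-Hochberg adjustment ran over all genes, and genes were called at an adjusted p under 0.05. The fits were tested on simulated data. Alternatives covered the filter, the probe set, centering, the variance model, the block, the arrays fitted, RNA integrity and leaving out pairs or lines.

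Named genes were MECOM, MS4A3 and CD52, up to 5 called genes in each direction of each time comparison, and up to 2 members of each list with the largest difference among those on the same side in all 4 pairs. Genes outside this rule were GPR183, S100A8, PDE4B, C5AR1 and CPEB4. The genes, comparisons, 25 lists and motifs were chosen with earlier results of these data known.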

Additional observations from a re-analysis of the deposited data

Results flagged for a closer look

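Among 45 named genes, the 4 early differences without minus with tet were examined for a value far from the others, and chance gives such a value in about 1 in 20 groups. NKG7, of cytotoxic lymphocytes, differed by -0.229 in E14 at 6 h, against -0.0511 to -0.0255 in the other 3 pairs. C5AR1 differed by -0.179 in E10 at 12 h, against -0.464 to -0.456 in the others. Of the named genes, NBEA was the only one whose response differed between 6 and 12 h by the test of the difference itself, by 2.08 on the log2 scale (limma, adjusted p = 0.000429).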

How the results depend on the processing

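For the pooled early response 2 genes, MECOM and NBEA, were called higher with the pair as a replicate block over 10 differences or with all 20 arrays and a line block, 1 with clone and time as additive blocks, 1 after centering, and 0 to 1 when a pair or clone was left out (GNL3L without E14). At 12 h the counts were 9 higher and 11 lower with an intensity trend and robust variance, 1 higher and 0 lower when E14 was dropped at 12 and 24 h, and 0 lower without the replicate block. With the replicate block over 10 differences 1 gene (INHBA) was called lower and PIP4P2 and CXCL8 lost their calls (adjusted p = 0.0557 each), 1 was called lower with the probe set of largest spread, and 4 with RNA integrity as a covariate, and leaving out a line gave 0 to 3. For 12 against 6 h, the trend gave 2 higher and 2 lower, the fit without those E14 arrays 0 higher, and leaving out a line 0 to 1 higher and 0 to 2 lower. At 6 h, 1 gene (MECOM) was called with the 16 arrays of the EVI1 clones or no replicate block, and 0 to 1 without a line.

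With a mean log2 of at least 5, 450 genes were higher in all 4 pairs and 67 lay above with all arrays. After centering, 1600 were lower in all 4 pairs and 183 lay below, and the shares at 6 h were 13.03% for genes higher and 38.57% for genes lower at 24 h. At 24 h, 173 genes higher and 175 lower differed by at least 2-fold, and 420 and 497 were called without the E14 arrays. Leaving out a line gave 215 to 1463 higher and 195 to 1670 lower at 24 h, 1044 to 2909 and 883 to 2679 at 48 h, and 318 to 553 and 195 to 335 in the control lines. At 48 h 575 higher and 519 lower were at least 2-fold, in the control lines 125 and 8, where the probe set of largest spread gave 566 lower.

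With that probe set the sign turned for CD52 (pooled -0.01329, 6 h -0.07341), MS4A3 (6 h -0.2904, 12 h 0.1911), CXCL8 (6 h -0.5253, 48 h -0.2525, 12 against 6 h 0.3671), INHBA (6 h -0.04908) and TLR4 (control lines 0.2533). INHBA at 6 h also turned after centering (-0.005573), with the covariate (-0.04172) and without E10 (-0.07052, against 0.1267 without E14), as did NBEA at 6 h without E10 (-0.01716, against 0.3657 without E14). CD52 at 12 h turned with the covariate (-0.01763) and without E14 (-0.07364, against 0.172 without E10). MS4A3 pooled turned without E14 (0.003385) or its pair at 12 h (0.01345, against -0.08177 without E10), and without P2 so did MECOM (0.04688, against -0.9871 without U937T) and TLR4 (0.1977, against -0.2663) in the control lines. Crossing the clones at 12 h, chosen after seeing the data, gave 3 higher and 3 lower at 12 h and 0 in the pooled response. The cause of these changes was not tested.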
